A study of Mus musculus with 24 samples.

Results

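The tumour necrosis factor (TNF) superfamily is a set of trimeric ligands, mostly held in the cell membrane, and of the receptors that bind them. Receptors with a death domain can recruit caspases, receptors that bind TRAF adaptor proteins drive NF-kB and MAP kinase signalling, and decoy receptors bind ligand without passing a signal on. In brain, microglia are a main source of TNF after exposure to bacterial lipopolysaccharide (LPS), and receptors of the family are also carried by endothelium, astrocytes, oligodendrocyte lineage cells and neurons. The members described here were the genes named Tnfsf or Tnfrsf followed by a number, together with Tnf, Lta, Ltb, Ltbr, Fas, Fasl, Cd40, Cd40lg, Cd27, Cd70, Ngfr and Eda2r. They came to 44 of the 43346 genes in the count table, and 36 of the 44 were measured, which meant at least 10 raw counts in at least 6 of the 24 libraries. The measured members were 11 ligands, 6 death-domain receptors, 15 TRAF-binding receptors, 3 decoy receptors and the antisense transcript Tnfsf13os. Tnfsf11 lay just inside that limit with 6 libraries at 10 counts, and Lta and Tnfrsf17 lay just outside with 4 and 3 libraries.

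Total RNA from mouse cortical brain was sequenced in 4 groups of 6 libraries. The groups were LPS mice labelled Abca7, aged 54 to 56 days, LPS control mice, aged 54 to 56 days, unstimulated mice labelled Abca7, aged 55 to 58 days, and unstimulated control mice, aged 55 to 57 days. Per the design text of the study, Abca7 mice were heterozygous for Abca7, a lipid transporter gene, and LPS was injected. No dose, route, time after injection, strain, sex or altered part of the gene is stated in the labels, and the other mice have only the stimulus none. Each library title carries its own animal number. Library totals ran from 48149131 to 75741388 counts. The counts of Abca7 itself did not show a reduction with its label. Abca7 averaged 29.4 ± 2.30 CPM (counts scaled to the effective library size) in LPS mice labelled Abca7 and 24.5 ± 2.66 CPM in LPS control mice, and 32.1 ± 2.07 CPM in unstimulated mice labelled Abca7 and 28.6 ± 2.22 CPM in unstimulated control mice (SD, n = 6 each). Counts per gene cannot show an altered stretch within Abca7, so the group names below follow the labels. Cortical markers were present in every library, with a summed level of 293.5 to 378.2 CPM over Tbr1, Cux2, Rorb and Lamp5.

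In the mice of both labels, Tnf, several other ligands, the receptors for TNF, Fas and Cd40 were higher after LPS, and a smaller set of members was lower. In mice labelled Abca7, 13 of the 36 measured members rose and 5 fell, against 6.65% and 5.18% of the 21891 genes tested, or 11.8% in either direction. In control mice, 14 rose and 5 fell, against 9.39% and 7.92% of genes, or 17.3% in either direction. A member was called when its adjusted p from edgeR's quasi-likelihood test over all tested genes was under 0.05. The members that rose in both were Tnf, Tnfsf8, Tnfsf9, Tnfsf10, Tnfsf15, Fas, Tnfrsf1a, Tnfrsf1b, Cd40, Tnfrsf14, Ltbr and Tnfrsf11a, which made 12, and the 4 that fell in both were Tnfsf12, Tnfsf13, Tnfrsf19 and Tnfrsf25. In cortex RNA of this kind, fewer cells of a type and less RNA per cell cannot be told apart. Tnf, Tnfsf8, Tnfsf11 and Tnfsf15 reached 10 counts in no unstimulated library, so they were measured only through LPS libraries and their counts cannot stand as support; leaving these 4 out gave 9 higher and 5 lower of 32 in mice labelled Abca7, and 11 higher and 5 lower of 32 in control mice. When the level of Ttr, a choroid plexus gene, entered the model as a covariate, the count came to 13 higher and 5 lower in mice labelled Abca7, against 13.4% of all genes called in either direction, and to 7 higher and 2 lower in control mice, against 7.43%.

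The size of the change differed widely among the members. Among the 32 members left without those 4, changes of at least 2-fold were called for 6 in mice labelled Abca7 and 6 in control mice, against 2.88% and 3.57% of all genes, which hold genes measured only through LPS as well. All 6 LPS libraries lay above all 6 unstimulated libraries for 7 of the 32 in mice labelled Abca7 and for 7 in control mice. They lay below for 2 members in mice labelled Abca7 and for 4 in control mice, and groups that did not overlap in either direction were found for 5.73% and 9.06% of all genes. The median log2 fold change over the 32 was 0.14 in mice labelled Abca7 and 0.14 in control mice (0.24 and 0.27 over all 36), beside 0.005 over all genes in both.

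**Figure D1:**
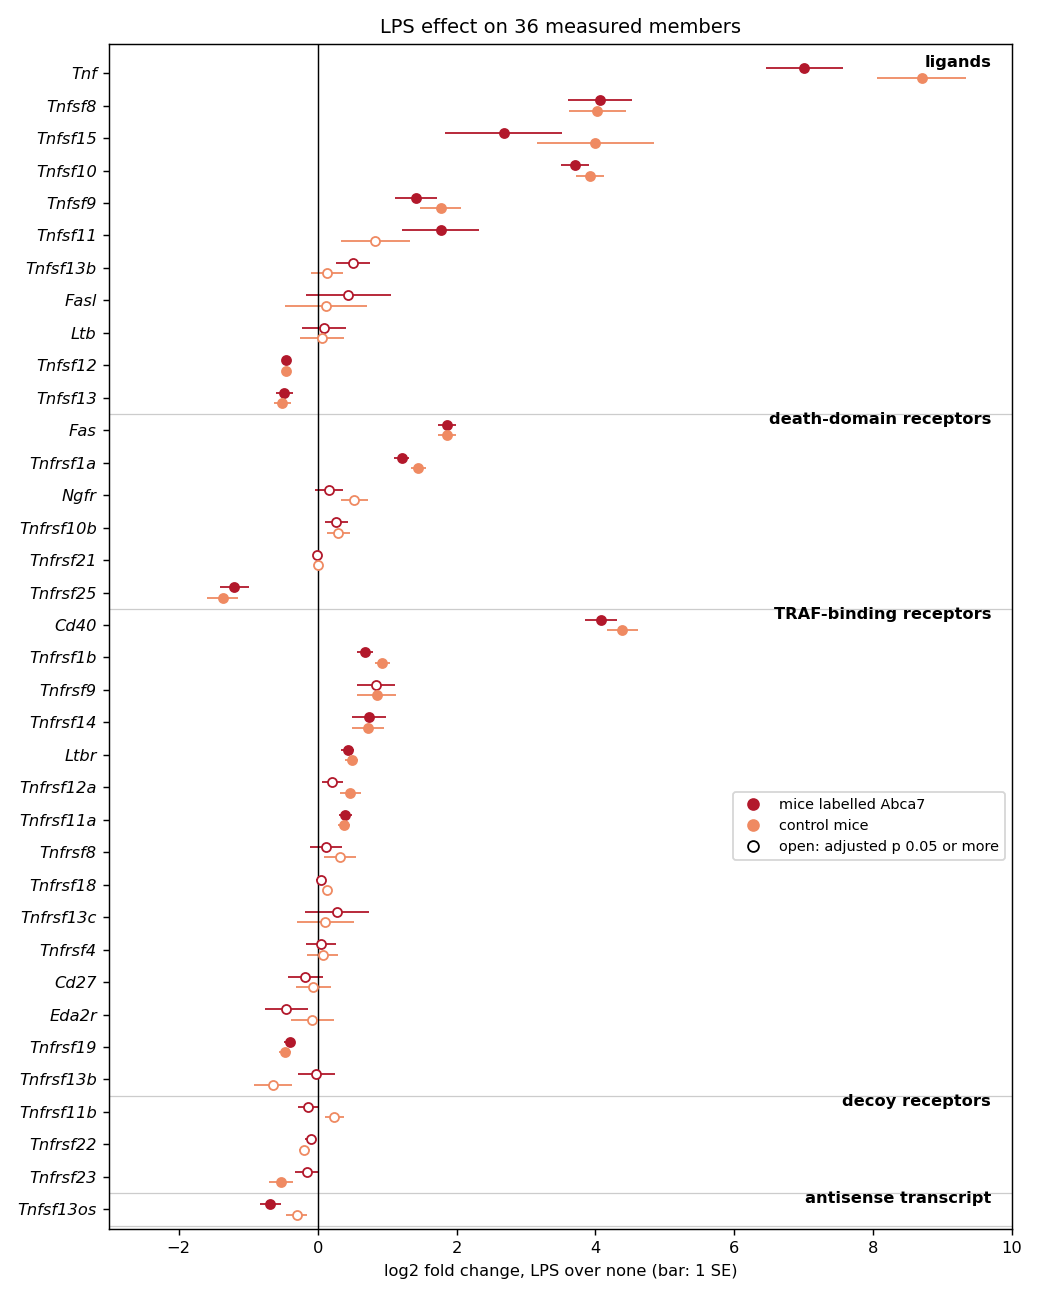
Log2 fold change of LPS over unstimulated libraries (x axis, bar 1 SE) for the 36 measured members, grouped by role down the y axis, in mice labelled Abca7 and in control mice (6 libraries a group); filled points passed an adjusted p of 0.05. Tnf lies farthest to the right at 7.01 and 8.70, and Tnfrsf25 farthest to the left at -1.20 and -1.37. For members near 0 without LPS the bars are no guide to precision. The exact interval of the Tnf count ratio in control mice was 129 to 2.85e+04.

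Tnf (ENSMUSG00000024401, chr17:35199381-35202007, minus strand, mm10) encodes the founding ligand, which is made as a membrane protein and shed by the protease ADAM17. Its RNA was all but undetected without LPS, so Tnf was measured only through LPS libraries. The lowest, median and highest libraries had 0.412, 2.01 and 2.84 CPM in LPS mice labelled Abca7, against 0, 0 and 0.0359 CPM in unstimulated mice labelled Abca7. They had 1.19, 2.14 and 2.84 CPM in LPS control mice, against 0, 0 and 0.0161 CPM in unstimulated control mice. Every LPS library lay above every unstimulated library in both. The counts summed to 663 in LPS mice labelled Abca7 and 4 in unstimulated mice labelled Abca7, a ratio of 154 (95% exact interval 59.9 to 567), and to 752 in LPS control mice and 1 in unstimulated control mice, a ratio of 721 (129 to 2.85e+04). These intervals cover counting error only. The edgeR adjusted p was 1.93e-10 in mice labelled Abca7 and 2.67e-11 in control mice, and the fitted log2 fold changes of 7.01 and 8.70 depend on the prior count at such low levels.

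Tnf stands on chromosome 17 between the lymphotoxin genes Ltb and Lta, with 3.06 kb to Ltb and 1.16 kb to Lta. Ltb was not called, and Lta was not tested. Ltb (chr17:35194439-35196320, plus strand), the membrane anchor of the lymphotoxin heterotrimer, had a median of 0.252 CPM in LPS mice labelled Abca7 and 0.239 CPM in unstimulated mice labelled Abca7, and of 0.251 CPM in LPS control mice and 0.233 CPM in unstimulated control mice. Its log2 fold changes were 0.09 ± 0.32 and 0.06 ± 0.32 (SE), neither called, and all groups overlapped. Lta, which encodes the soluble lymphotoxin, was not measured: its counts summed to 47 over LPS mice labelled Abca7 and 19 over unstimulated mice labelled Abca7, and to 46 over LPS control mice and 23 over unstimulated control mice. Sequence before the RefSeq start (GRCm38.p6) of Tnf, 250 bases at chr17:35202008-35202257 on the minus strand, and of Ltb, 182 bases at chr17:35194257-35194438 on the plus strand, is shown because these genes are neighbours and only Tnf was called. Bases inside the deposited gene span are left out, so the stretch of Ltb ends 68 bases before its RefSeq start. Capitals mark a TATA box (TATAAA) in Tnf, and a STAT site (TTCNNNGAA) followed by a match to the NF-kB consensus in Ltb.
Tnf: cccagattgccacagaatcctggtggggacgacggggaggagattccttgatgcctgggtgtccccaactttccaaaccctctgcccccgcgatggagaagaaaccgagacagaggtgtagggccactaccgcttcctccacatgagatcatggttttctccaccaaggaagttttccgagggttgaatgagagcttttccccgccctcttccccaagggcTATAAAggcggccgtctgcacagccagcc
Ltb: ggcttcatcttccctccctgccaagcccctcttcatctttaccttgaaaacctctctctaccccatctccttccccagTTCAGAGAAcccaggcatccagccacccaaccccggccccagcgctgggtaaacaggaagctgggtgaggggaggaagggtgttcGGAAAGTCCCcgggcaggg
The TATA box, chosen for the search after the promoters were seen, began 29 bases before the start of Tnf, and no match to the NF-kB consensus, the STAT site or the interferon-stimulated response element core (GAAA, 2 bases of any kind, then GAAA) was found in that window. In Ltb the STAT site began 172 bases and the NF-kB match, GGAAAGTCCC, 87 bases before the start. A match is a run of letters and not a binding site, and a window without a match says nothing about the factor.

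The receptors for TNF both rose. Tnfrsf1a (ENSMUSG00000030341, chr6:125349362-125362484, plus strand), the death-domain receptor found on most cells, had a lowest, median and highest level of 10.6, 15.2 and 18.6 CPM in LPS mice labelled Abca7, against 5.84, 6.16 and 8.02 CPM in unstimulated mice labelled Abca7. The levels were 14.3, 17.8 and 19.8 CPM in LPS control mice, against 5.47, 6.43 and 7.52 CPM in unstimulated control mice. The groups did not overlap in either, and the log2 fold changes were 1.21 ± 0.11 (adjusted p = 3.39e-09) and 1.45 ± 0.11 (adjusted p = 6.74e-11). Tnfrsf1b (ENSMUSG00000028599, chr4:145213463-145246870, minus strand), the TRAF-binding receptor that prefers membrane-bound TNF and is found on microglia and other immune cells, changed less. It had 4.43, 5.30 and 7.13 CPM in LPS mice labelled Abca7, against 2.95, 3.52 and 3.90 CPM in unstimulated mice labelled Abca7. It had 6.45, 6.73 and 7.23 CPM in LPS control mice, against 2.78, 3.57 and 4.29 CPM in unstimulated control mice. Again no LPS library fell among the unstimulated ones, with log2 fold changes of 0.68 ± 0.11 (adjusted p = 3.94e-05) and 0.93 ± 0.11 (adjusted p = 1.45e-07). Ltbr, the lymphotoxin beta receptor, lies 35.5 kb from Tnfrsf1a and rose by a log2 fold change of 0.43 ± 0.10 (adjusted p = 0.00209) in mice labelled Abca7 and of 0.49 ± 0.09 (adjusted p = 3.25e-04) in control mice.

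**Figure D2:**
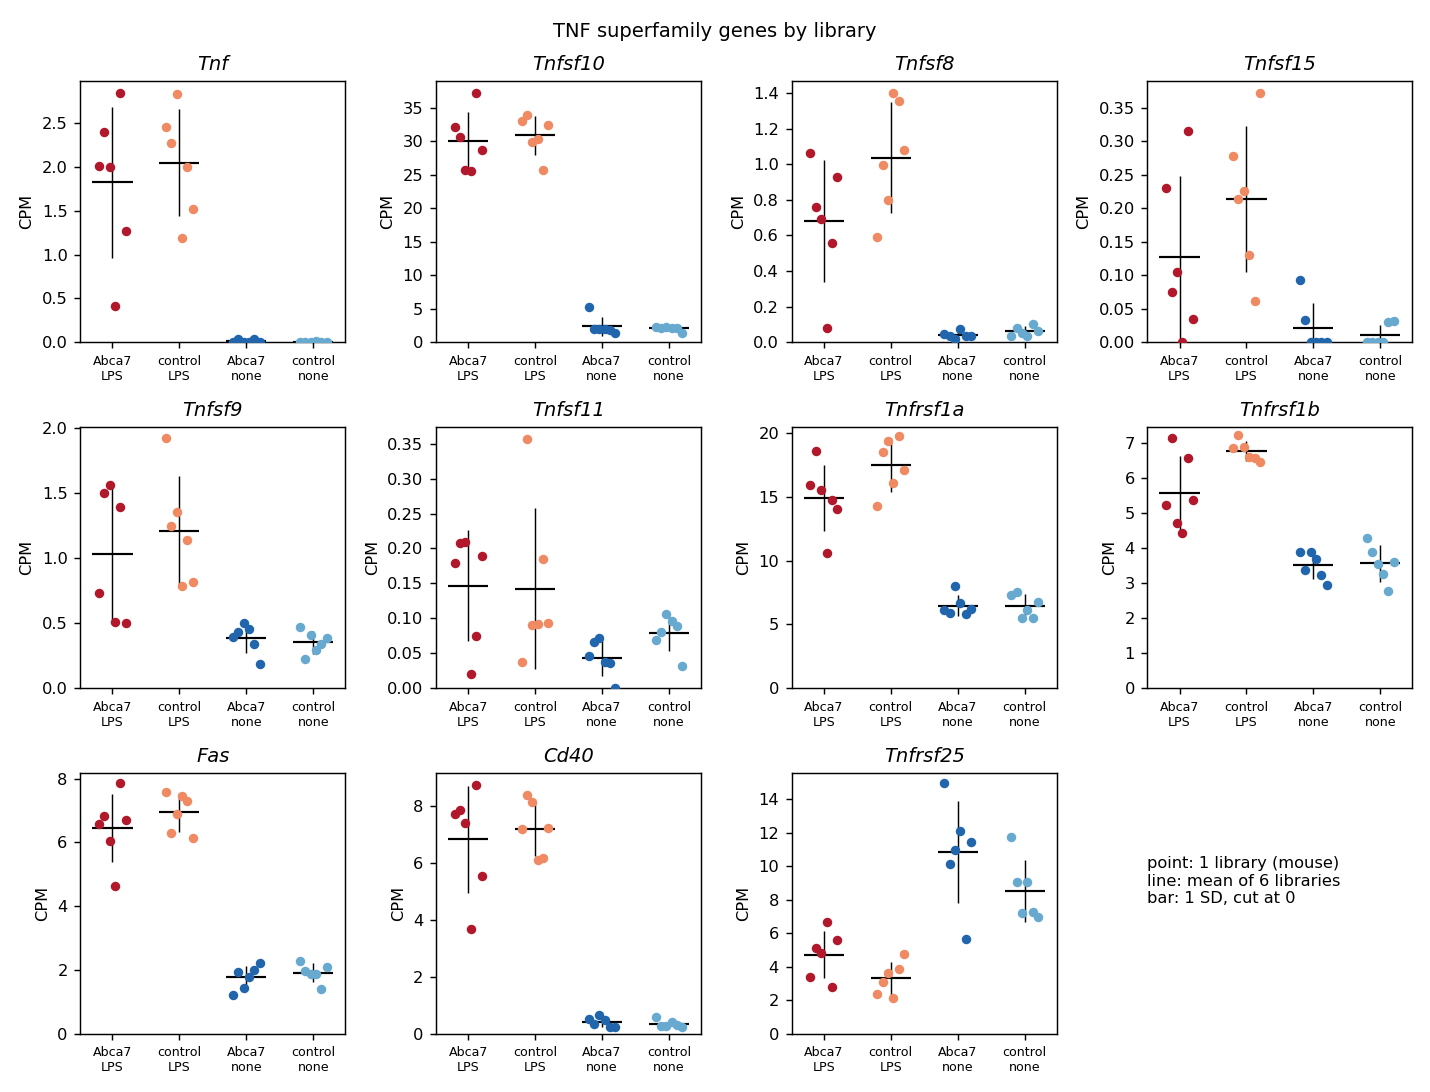
Level in CPM (y axis, linear, from 0) of the 11 members given library by library; each point is 1 library, lines are means of 6 libraries and bars 1 SD. The 12 LPS libraries of Tnfsf10 lie between 25.6 and 37.2 CPM and its unstimulated libraries at or below 5.26 CPM, while Tnfrsf25 is lower with LPS.

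Tnfsf10 (ENSMUSG00000039304, chr3:27317028-27342427, plus strand), known as TRAIL and as an interferon-inducible death ligand, was the most abundant ligand after LPS. Its lowest, median and highest libraries had 25.6, 29.7 and 37.2 CPM in LPS mice labelled Abca7, against 1.34, 1.91 and 5.26 CPM in unstimulated mice labelled Abca7. In LPS control mice they had 25.7, 31.4 and 33.9 CPM, against 1.31, 2.12 and 2.33 CPM in unstimulated control mice. The groups were far apart, with log2 fold changes of 3.71 ± 0.20 (adjusted p = 7.01e-14) and 3.92 ± 0.20 (adjusted p = 1.46e-14). No TRAIL receptor was called higher. Tnfrsf10b, the signalling death receptor for TRAIL in mouse, had log2 fold changes of 0.27 ± 0.16 and 0.30 ± 0.16, and neither was called. The mouse decoy receptors Tnfrsf22 and Tnfrsf23 had log2 fold changes of -0.10 ± 0.08 and -0.15 ± 0.17 in mice labelled Abca7, neither called. In control mice Tnfrsf22 was at -0.19 ± 0.08 (adjusted p = 0.13) and Tnfrsf23 fell by 0.53 ± 0.17 (adjusted p = 0.0317), with overlapping groups. That call for Tnfrsf23 was lost without any of 5 libraries, with adjusted p of 0.0547 to 0.107. Tnfrsf22 and Tnfrsf23 lie 16.1 kb apart and share sequence, 27.4% and 19.3% of their 50-base stretches having a copy elsewhere in the transcripts, so their counts may be split between them.

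Tnfsf8 and Tnfsf15, ligand genes that stand 86.2 kb apart on chromosome 4, were both near zero without LPS and both rose with it. Both were measured only through LPS libraries. Tnfsf8 (ENSMUSG00000028362, chr4:63831308-63861347, minus strand), the CD30 ligand, had 0.0785, 0.724 and 1.06 CPM in LPS mice labelled Abca7, against 0.0180, 0.0345 and 0.0730 CPM in unstimulated mice labelled Abca7. It had 0.592, 1.04 and 1.40 CPM in LPS control mice, against 0.0321, 0.0586 and 0.104 CPM in unstimulated control mice. The groups did not overlap in CPM. In mice labelled Abca7, however, the lowest LPS library and the highest unstimulated one both had 4 counts. The LPS library had the larger total, 54193779 against 53266643 counts. Only the TMM factors that scale the totals, 0.941 and 1.03, put its CPM above the other. The counts gave ratios of 18.2 (95% exact interval 10.5 to 34.7) and 17.2 (11.2 to 27.7), with adjusted p of 1.66e-07 and 1.58e-08. Tnfsf15 (ENSMUSG00000050395, chr4:63727084-63745113, minus strand), known as TL1A and as a cytokine of endothelium and myeloid cells, had few counts. It had 0, 0.0894 and 0.316 CPM in LPS mice labelled Abca7, against 0, 0 and 0.0922 CPM in unstimulated mice labelled Abca7, and those groups overlapped. It had 0.0617, 0.220 and 0.372 CPM in LPS control mice, against 0, 0 and 0.0319 CPM in unstimulated control mice, with no overlap. The counts gave ratios of 7.28 (3.10 to 20.8; adjusted p = 0.0355) in mice labelled Abca7 and 18.2 (6.83 to 68.6; adjusted p = 9.27e-04) in control mice. The call in mice labelled Abca7 was lost without any of 6 libraries, with adjusted p of 0.0697 to 0.115.

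Sequence before these ligand genes, 187 bases at chr4:63861348-63861534 for Tnfsf8 and 196 bases at chr4:63745114-63745309 for Tnfsf15, both on the minus strand, is shown because their RNA was near zero without LPS and rose with it. The stretches end 63 and 54 bases before the RefSeq starts, where the deposited gene spans begin. Neither held any of the 4 motifs searched on both strands, so no letter is in capitals. The promoter entry of Tnfsf10 held none of the 4 either, and Cd40 has no entry in the table used.
Tnfsf8: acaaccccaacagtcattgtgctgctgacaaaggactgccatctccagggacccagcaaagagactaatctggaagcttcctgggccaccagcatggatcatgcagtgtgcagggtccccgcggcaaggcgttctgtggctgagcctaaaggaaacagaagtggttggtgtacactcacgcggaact
Tnfsf15: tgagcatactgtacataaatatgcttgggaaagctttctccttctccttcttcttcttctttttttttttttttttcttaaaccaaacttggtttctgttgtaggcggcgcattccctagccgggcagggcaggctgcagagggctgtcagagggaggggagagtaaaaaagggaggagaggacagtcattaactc
Among the 29 measured members with a promoter entry, over 250 bases before to 50 after the start, the NF-kB consensus was found in 3 (10.3%), the interferon element core in 3 (10.3%), the STAT site in 8 (27.6%) and the TATA box in 4 (13.8%). Over all genes of the table the shares were 5.14%, 3.99%, 9.55% and 15.7%. The NF-kB matches were in Ltb, Tnfrsf8 and Tnfrsf9, and of these 3 genes only Tnfrsf9 was called, in control mice. Tnfrsf9 has entries at chr4:150919905-150920204 and chr4:150927749-150928048, both inside its deposited gene span, and only the latter held a match. There GGGGATTTCC began 43 bases before the start and overlapped GGGATTTCCC. The STAT sites included TTCTGGGAA 93 bases before the start of Fas and TTCCGTGAA 244 bases before that of Tnfrsf1a, which both rose. The Tnfrsf1a window lies inside its deposited gene span. TTCTCAGAA lay 16 bases before a start of Tnfrsf25, which fell, and its other entry held no match. The other genes with a STAT site were Tnfrsf1b, which rose, Tnfrsf19, which fell, Tnfrsf9, called in control mice only, and Ltb and Tnfrsf18, called in neither.

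Neither receptor for these ligands was called higher. Tnfrsf25 (ENSMUSG00000024793, chr4:152115934-152120119, plus strand), the death-domain receptor for Tnfsf15, was the member that fell the most. It had 2.80, 4.96 and 6.65 CPM in LPS mice labelled Abca7, against 5.63, 11.2 and 14.9 CPM in unstimulated mice labelled Abca7, with 1 unstimulated library among the LPS ones. It had 2.10, 3.36 and 4.76 CPM in LPS control mice, against 6.96, 8.13 and 11.8 CPM in unstimulated control mice, with no overlap. Its log2 fold changes were -1.20 ± 0.21 (adjusted p = 1.43e-04) and -1.37 ± 0.22 (adjusted p = 2.36e-05). Tnfrsf8, the CD30 receptor, had log2 fold changes of 0.12 ± 0.23 and 0.32 ± 0.23 and was called in neither.

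Cd40 (ENSMUSG00000017652, chr2:165055627-165072948, plus strand), the costimulatory receptor of antigen-presenting cells and activated microglia, rose more than any other receptor. It had 3.67, 7.55 and 8.73 CPM in LPS mice labelled Abca7, against 0.232, 0.411 and 0.646 CPM in unstimulated mice labelled Abca7. It had 6.09, 7.20 and 8.38 CPM in LPS control mice, against 0.223, 0.281 and 0.571 CPM in unstimulated control mice. All LPS libraries lay well above the others, with log2 fold changes of 4.08 ± 0.23 (adjusted p = 2.32e-13) and 4.39 ± 0.23 (adjusted p = 4.45e-14). Its ligand Cd40lg, a protein of activated T cells, had 1 count over all 24 libraries.

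Fas (ENSMUSG00000024778, chr19:34290659-34327770, plus strand), the death-domain receptor for Fas ligand, also rose, while its ligand was not called. It had 4.63, 6.65 and 7.86 CPM in LPS mice labelled Abca7, against 1.22, 1.85 and 2.22 CPM in unstimulated mice labelled Abca7. It had 6.15, 7.09 and 7.59 CPM in LPS control mice, against 1.39, 1.92 and 2.29 CPM in unstimulated control mice. The groups did not overlap, and the log2 fold change was 1.86 ± 0.13 in both (adjusted p = 1.80e-11 and 8.61e-12). Fasl, the ligand made by cytotoxic lymphocytes, was near its detection limit with 52 counts over LPS mice labelled Abca7, 35 over unstimulated mice labelled Abca7, 49 over LPS control mice and 44 over unstimulated control mice. Its log2 fold changes of 0.44 ± 0.61 and 0.12 ± 0.59 were called in neither, and the SE leaves room for changes of 2-fold.

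Tnfsf9 and its receptor Tnfrsf9, a costimulatory pair between antigen-presenting cells and T cells, both had positive changes. Tnfsf9 (ENSMUSG00000035678, chr17:57105385-57107757, plus strand) had 0.4995, 1.06 and 1.57 CPM in LPS mice labelled Abca7, against 0.182, 0.410 and 0.503 CPM in unstimulated mice labelled Abca7, and those groups just touched. It had 0.784, 1.19 and 1.93 CPM in LPS control mice, against 0.221, 0.362 and 0.467 CPM in unstimulated control mice, with no overlap. The log2 fold changes were 1.42 ± 0.30 (adjusted p = 0.00134) and 1.77 ± 0.30 (adjusted p = 6.44e-05). Tnfrsf9 had similar changes in both, 0.84 ± 0.28 (adjusted p = 0.0527) in mice labelled Abca7 and 0.85 ± 0.28 (adjusted p = 0.0378) in control mice, so that only the second was called. The call in control mice was lost without any of 7 libraries (adjusted p of 0.0623 to 0.0983), and the change in mice labelled Abca7 passed under DESeq2 (adjusted p = 0.0387), with age as a factor (adjusted p = 0.0459) and without any of 3 libraries (adjusted p of 0.00346 to 0.0456). Tnfsf9 shares 11.5% of its 50-base stretches with Gm11110 on the opposite strand, and Tnfrsf9 overlaps Camta1 there; whether the counting used strand is not stated in the labels.

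The receptor activator of NF-kB (RANK) set changed in part. Tnfsf11 (ENSMUSG00000022015, chr14:78277445-78308043, minus strand), the RANK ligand, had 0.0196, 0.185 and 0.209 CPM in LPS mice labelled Abca7, against 0, 0.0413 and 0.0718 CPM in unstimulated mice labelled Abca7. It had 0.0370, 0.0922 and 0.356 CPM in LPS control mice, against 0.0319, 0.0846 and 0.107 CPM in unstimulated control mice. Both pairs of groups overlapped, and the count ratios were 3.58 (95% exact interval 1.96 to 6.99; adjusted p = 0.0366) and 1.78 (1.10 to 2.93; adjusted p = 0.288). The call in mice labelled Abca7 was lost without any of 8 libraries (adjusted p of 0.0601 to 0.0856). Tnfsf11, too, was measured only through LPS libraries. Tnfrsf11a, the receptor RANK, rose by 0.40 ± 0.09 (adjusted p = 0.00171) and 0.38 ± 0.09 (adjusted p = 0.00183) on the log2 scale. Tnfrsf11b, the secreted decoy osteoprotegerin, was at -0.14 ± 0.14 and 0.24 ± 0.14 and was called in neither.

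The members that fell in both, Tnfrsf19, Tnfsf12, Tnfrsf25 and Tnfsf13, held places 2, 3, 6 and 10 of 36 by length-scaled level in unstimulated control mice. Tnfsf12, known as TWEAK, fell by 0.45 ± 0.07 on the log2 scale in both (adjusted p = 5.85e-05 in mice labelled Abca7 and 4.48e-05 in control mice), with no overlap between the groups. Its receptor Tnfrsf12a had log2 fold changes of 0.21 ± 0.15 (adjusted p = 0.423) in mice labelled Abca7 and 0.47 ± 0.15 (adjusted p = 0.0245) in control mice, and the call in control mice was lost without any of 3 libraries (adjusted p of 0.0525 to 0.0705). Tnfsf13, the B cell factor APRIL, had log2 fold changes of -0.48 ± 0.12 (adjusted p = 0.00606) and -0.51 ± 0.12 (adjusted p = 0.00312). The antisense transcript Tnfsf13os lies across Tnfsf12 and Tnfsf13 and was at -0.68 ± 0.15 (adjusted p = 0.00248) in mice labelled Abca7 and -0.30 ± 0.15 (adjusted p = 0.186) in control mice. Because Tnfsf12 and Tnfsf13 also share 46.8% and 57.3% of their 50-base stretches with other transcripts, mainly the fusion gene Tnfsfm13, the changes at this locus cannot be told apart with certainty. Tnfrsf19, known as TROY, a receptor of neural progenitors and glia that can stand in for Ngfr in the Nogo receptor complex, fell by 0.40 ± 0.08 (adjusted p = 4.38e-04) and 0.47 ± 0.08 (adjusted p = 3.77e-05).

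Of the remaining B cell and T cell axes, Tnfrsf14 alone was called. Tnfrsf14, the receptor for the ligand LIGHT, rose by 0.74 ± 0.24 (adjusted p = 0.0425) and 0.72 ± 0.23 (adjusted p = 0.0313) on the log2 scale, with overlapping groups. Those calls were lost without any of 10 libraries in mice labelled Abca7 (adjusted p of 0.0550 to 0.0934) and of 6 in control mice (0.0515 to 0.0785). Tnfsf13b, the B cell survival factor BAFF, was at 0.51 ± 0.24 (adjusted p = 0.188) and 0.14 ± 0.23 (adjusted p = 0.737). Its receptors Tnfrsf13b and Tnfrsf13c were at -0.02 ± 0.27 and 0.28 ± 0.46 in mice labelled Abca7, and at -0.64 ± 0.27 and 0.11 ± 0.41 in control mice. The T cell costimulators Tnfrsf4, Tnfrsf18 and Cd27 had log2 fold changes between -0.18 and 0.14 over both comparisons. None of these genes of B cell and T cell costimulation was called in either comparison. The unmeasured ligands Tnfsf4, Tnfsf18 and Tnfsf14 had at most 2 counts in any library, Cd70 at most 13, and the receptors Tnfrsf17 and Tnfrsf26 at most 24 and 6.

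Among receptors with known roles in neurons, Ngfr, the p75 neurotrophin receptor, was at 0.16 ± 0.20 (adjusted p = 0.687) in mice labelled Abca7 and at 0.53 ± 0.20 (adjusted p = 0.0633) in control mice. The second value passed under DESeq2 (adjusted p = 0.0437). It also passed in edgeR when some single libraries of control mice were left out (adjusted p of 0.00889 to 0.0400). Tnfrsf21, known as death receptor 6 and expressed in neurons and oligodendrocyte precursors, was not called, with log2 fold changes of -0.01 ± 0.04 and 0.01 ± 0.04. Eda2r, the X-linked receptor for an ectodysplasin isoform, was at -0.45 ± 0.31 and -0.08 ± 0.31.

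Scaled by gene length, the same 2 receptors led the order of the members in all 4 groups, and the ligands Tnfsf10 and Tnfsf12 changed places. Tnfrsf21 was first in all 4 groups, at 20.6 ± 0.984 CPM per kb in LPS mice labelled Abca7, 21.4 ± 1.03 in LPS control mice, 20.8 ± 0.711 in unstimulated mice labelled Abca7 and 21.3 ± 1.12 in unstimulated control mice (SD, n = 6 each), and its libraries lay above all those of the next gene. Tnfrsf19 was second in all 4, at 8.28 ± 0.820 CPM per kb in LPS mice labelled Abca7, 8.06 ± 0.821 in LPS control mice, 10.9 ± 1.42 in unstimulated mice labelled Abca7 and 11.2 ± 0.783 in unstimulated control mice. Tnfsf12 stood in place 9 in both LPS groups, against place 4 in unstimulated mice labelled Abca7 and 3 in unstimulated control mice. Tnfsf10 stood in place 4 of 36 in LPS mice labelled Abca7 and 19 in unstimulated mice labelled Abca7, and in place 4 in LPS control mice and 22 in unstimulated control mice. Cd40 stood in place 12 with LPS and 29 without in mice labelled Abca7, and in place 11 with LPS and 30 without in control mice. Tnf stood in place 16 with LPS and 35 without in mice labelled Abca7, and in place 15 with LPS and 36 without in control mice. Apart from Tnfrsf21, Tnfrsf19 and Tnfsf13, whose libraries lay clear of the next gene in at least 1 group, and Tnfrsf22 in LPS control mice, neighbours in the order overlapped, so most single places are not firm.

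**Figure D3:**
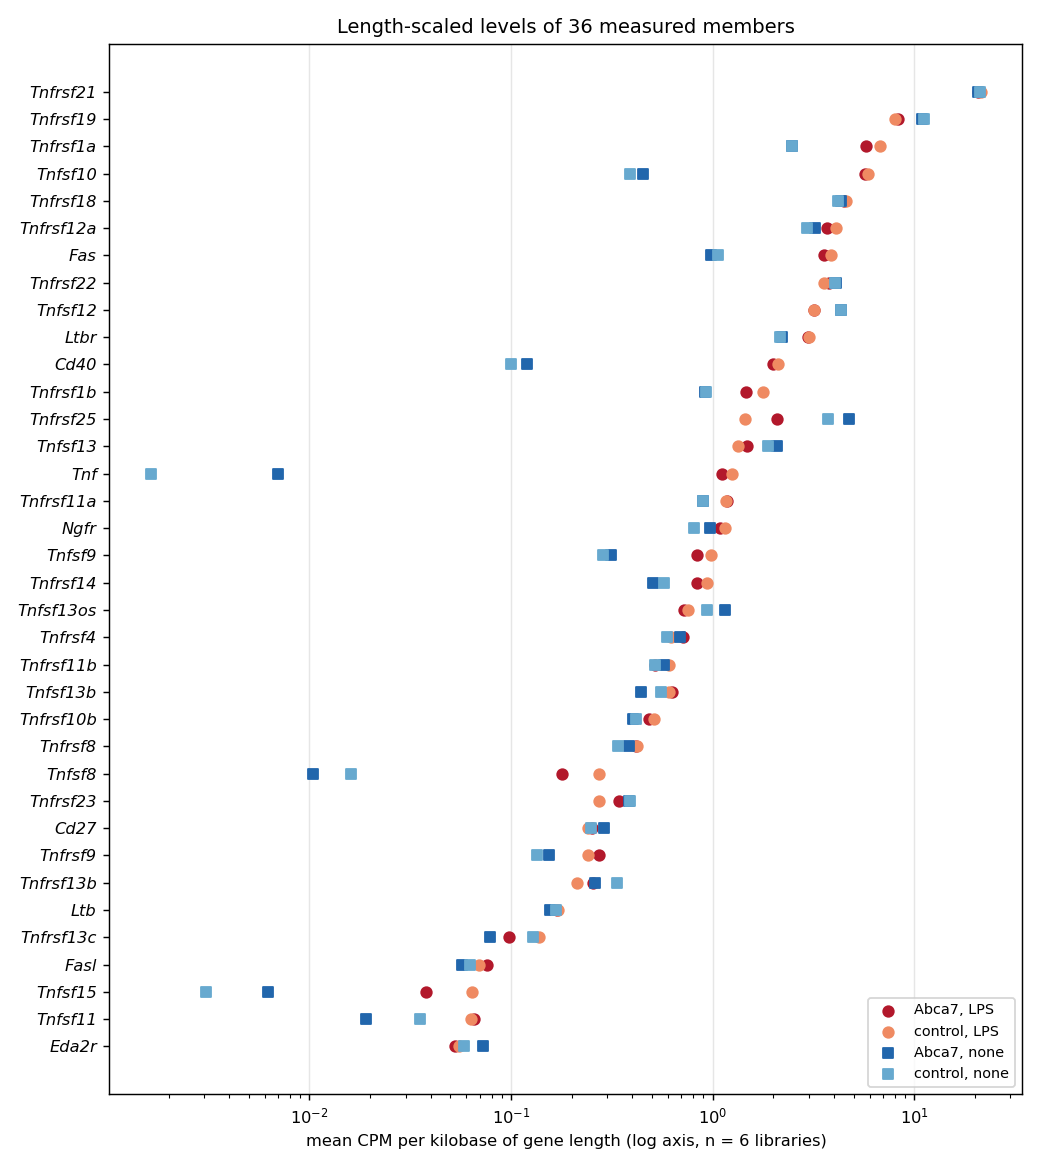
Mean level in CPM per kilobase of gene length (x axis, log scale, n = 6 libraries a group) of the 36 measured members, ordered down the y axis by LPS control mice. Circles are LPS groups and squares unstimulated groups; they lie far apart for Tnf, Tnfsf8, Tnfsf10, Tnfsf15 and Cd40 and nearly coincide for Tnfrsf21.

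The Abca7 label was compared within each stimulus. With LPS, none of the 36 measured members was called between mice labelled Abca7 and control mice, and 0% of all genes were called. Without LPS, again none was called, against 0.0137% of all genes higher and 0.0183% lower, or 0.032% in either direction. The groups of both labels overlapped for every measured member, while 0.425% of all genes with LPS and 0.26% without had groups that did not overlap. At an unadjusted p under 0.05 there were 3 of 36 members with LPS, against 7.99% of all genes, a share near that background, and 0 without, against 6.51%. DESeq2 also called 0 in both. The 3 with LPS were Tnfrsf1b, at a log2 difference of -0.28 ± 0.10 (unadjusted p = 0.0136, adjusted p = 0.483), Tnfrsf1a, at -0.23 ± 0.11 (unadjusted p = 0.0375, adjusted p = 0.599), and Tnfrsf25, at 0.52 ± 0.22 (unadjusted p = 0.0263, adjusted p = 0.551). The difference between the LPS effects of the mice of both labels, the interaction, was called for 0 of 36 members and 0% of all genes, with 0 members at an unadjusted p under 0.05, against 3.4% of genes, and 0 under DESeq2. For Tnf the interaction was -1.69 ± 1.61 on the log2 scale, for Cd40 -0.31 ± 0.35, for Tnfsf10 -0.22 ± 0.27 and for Tnfrsf1b -0.25 ± 0.15. Members called in mice of 1 label alone (Tnfsf11 and Tnfsf13os in mice labelled Abca7; Tnfrsf9, Tnfrsf12a and Tnfrsf23 in control mice) were therefore not shown to respond differently.

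A single library stood apart in its response. LPS library 4 of the mice labelled Abca7 was the lowest of its group for 11 of the 13 members called higher there, with a median of -0.94 on the log2 scale relative to the group's median. No library of the LPS control mice was the lowest for more than 4 of the 14 members called higher. It had 0.412 CPM of Tnf and 0.0785 CPM of Tnfsf8, the lowest values of its group. Its 25.6 CPM of Tnfsf10 was also the lowest, but lay far above the 5.26 CPM of the highest unstimulated library. Its total was 54193779 counts. Its summed microglial markers were 212 CPM, above the 172 to 192 CPM of the other 5 libraries. Its monocyte markers were at 38.4 CPM, above their 30.9 to 34.9 CPM, but Vcan alone averaged 29.3 CPM in this group. Its neutrophil markers were at 0.726 CPM, below their 1.03 to 2.06 CPM, and its choroid plexus markers at 249 CPM, within their 31.1 to 415 CPM. It also lay above the other 5 for oligodendrocyte markers (5155 against 4127 to 5140 CPM) and B cell markers. It lay below them for neuron markers (4631 against 4695 to 5097 CPM) and for oligodendrocyte precursor, striatum, and T and NK cell markers. The part of these lists in its position was not tested. Its TNF alpha induced protein genes summed to 78.0 CPM, below the 108 to 146 CPM of the other 5. Its sums were also lowest for the lists, described below, of adaptors, ubiquitin editing, non-canonical NF-kB, TNF shedding and family genes outside the rule. Those of the TAK1 and MAP kinase arm and of TNF mRNA control lay within the range of the other 5. Without this library 14 members were called higher and 5 lower in mice labelled Abca7, and the log2 fold changes came to 4.20 for Cd40, 4.28 for Tnfsf8, 1.29 for Tnfrsf1a and 0.73 for Tnfrsf1b. The comparison of labels under LPS then still had 0 members called, and 2 at an unadjusted p under 0.05.

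**Figure D4:**
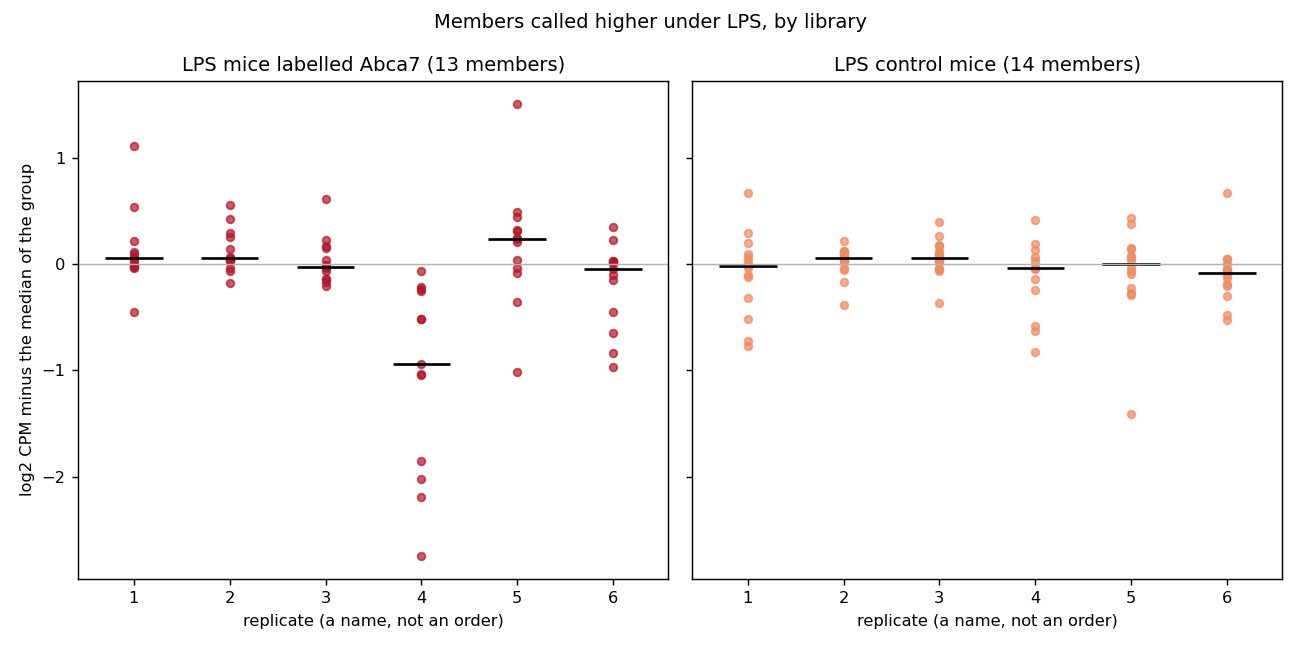
Log2 CPM minus the median of the group (y axis) for each member called higher under LPS, by library (x axis; replicate numbers are names), in LPS mice labelled Abca7 (13 members) and LPS control mice (14 members); bars are medians over members. Library 4 of the mice labelled Abca7 has a median of -0.94, while medians of the other LPS libraries lie between -0.08 and 0.24.

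Genes that act downstream of the TNF receptors changed at a few points of the pathway. Over all tested genes, 6.65% rose and 5.18% fell in mice labelled Abca7, and 9.39% rose and 7.92% fell in control mice. A single call in a list this short is near those shares and is not read as a result. Among 16 receptor-proximal adaptors, 5 rose and 2 fell in mice labelled Abca7, and 6 rose and 2 fell in control mice, with medians of 0.06 and 0.10 on the log2 scale. Birc3, a ubiquitin ligase that protects against TNF-induced death, had the largest changes there, 2.74 ± 0.23 (adjusted p = 6.88e-10) and 2.97 ± 0.23 (adjusted p = 9.45e-11). Of 12 genes of ubiquitin editing at the receptor, 4 rose and 1 fell, and 5 rose and 1 fell, with a median of 0.04 in both. The deubiquitinase Tnfaip3, known as A20, rose by 2.32 ± 0.25 (adjusted p = 7.49e-08) and 2.43 ± 0.25 (adjusted p = 2.06e-08), and its partner Tnip3 by 2.84 ± 0.45 (adjusted p = 3.56e-05) and 3.98 ± 0.48 (adjusted p = 2.70e-07). Of 4 genes of the non-canonical NF-kB arm, which Cd40 and Ltbr engage, 2 rose and 1 fell in both comparisons. Nfkb2 rose by 2.07 ± 0.18 (adjusted p = 1.41e-09) and 2.36 ± 0.18 (adjusted p = 8.61e-11), and Relb by 0.999 ± 0.12 (adjusted p = 8.68e-07) and 1.16 ± 0.12 (adjusted p = 4.07e-08).

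Regulators of TNF RNA and of TNF release also changed in part. The share of all tested genes called in either direction was 11.8% in mice labelled Abca7 and 17.3% in control mice, and single calls in these lists are near it. Of 8 genes that bind or control TNF mRNA, 3 rose and 1 fell in both comparisons, with medians of 0.01 in mice labelled Abca7 and 0.00 in control mice. Zfp36, which destabilises TNF mRNA, rose by 2.45 ± 0.18 (adjusted p = 3.94e-11) and 2.80 ± 0.18 (adjusted p = 2.06e-12), and the RNase gene Zc3h12a by 2.19 ± 0.29 (adjusted p = 2.18e-06) and 2.45 ± 0.29 (adjusted p = 2.32e-07). Of 6 genes of TNF shedding, 2 rose in mice labelled Abca7 and 3 in control mice. Rhbdf2, which carries the sheddase ADAM17 to the cell surface, rose by 1.64 ± 0.15 (adjusted p = 3.73e-09) and 1.87 ± 0.15 (adjusted p = 1.73e-10). Of 8 genes named for induction by TNF or for likeness to such a gene, 2 rose in mice labelled Abca7, and 3 rose and 1 fell in control mice. Apart from Tnfaip3, which both lists hold, the largest changes were those of Tnfaip2, at 2.57 ± 0.28 (adjusted p = 9.24e-08) and 2.98 ± 0.29 (adjusted p = 6.00e-09). Of 10 genes of the TAK1 and MAP kinase arm, 1 rose and 1 fell in mice labelled Abca7 and 2 rose and 2 fell in control mice, none by 2-fold. Of 6 family genes outside the naming rule, 1 rose in both, the receptor Relt.

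**Figure D5:**
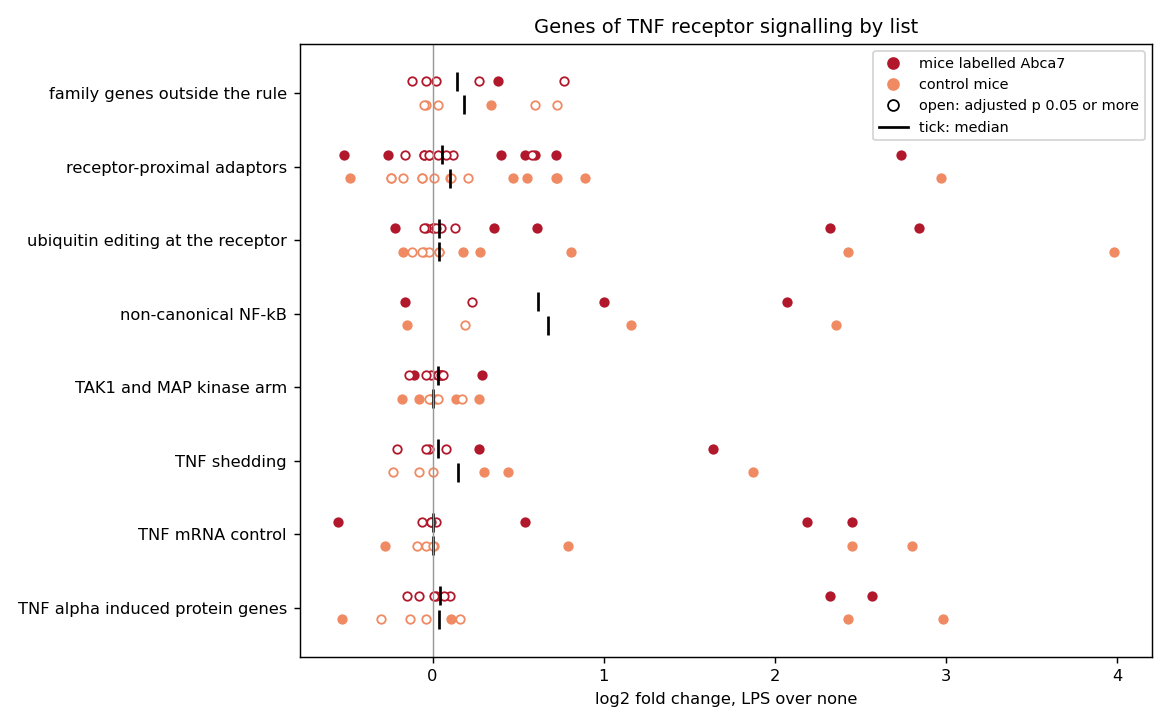
Log2 fold change of LPS over unstimulated libraries (x axis) for each gene of 8 lists of TNF receptor signalling (y axis), in mice labelled Abca7 and in control mice; filled points passed an adjusted p of 0.05 and ticks are list medians. Most genes lie near 0, and a few, led by Tnip3 at 2.84 and 3.98, lie to the right.

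Markers of several cell types also changed with LPS. The counts below stand beside 11.8% of all tested genes called in either direction in mice labelled Abca7 and 17.3% in control mice. Single calls in a list are near those shares. The 8 microglial markers all fell, with sums of 172 to 212 CPM in LPS mice labelled Abca7 and 254 to 274 CPM in unstimulated mice labelled Abca7, and of 174 to 191 CPM in LPS control mice and 263 to 272 CPM in unstimulated control mice. Of 8 endothelial markers 7 fell and 1 rose in both comparisons, and of 6 markers of meningeal fibroblasts 4 fell in both. Of 7 monocyte markers 2 rose in mice labelled Abca7 and 4 in control mice. Those in control mice included Vcan, at 0.17 ± 0.05 on the log2 scale (adjusted p = 0.0114), which held most of the summed level of the list. Of 8 neutrophil markers 2 passed the filter on low counts and both rose, the list sums stayed at or below 3.24 CPM, and Elane was at 0 in every library. Of 8 T and NK cell and 5 B cell markers, 2 and 1 passed the filter and none was called. Of 6 choroid plexus markers 0 were called in mice labelled Abca7 and 4 rose in control mice, with sums of 182 to 529 CPM in LPS control mice and 10.1 to 288 CPM in unstimulated control mice. Of 6 astrocyte markers 2 rose in mice labelled Abca7 and 4 in control mice, with Gfap, an intermediate filament of reactive astrocytes, at log2 fold changes of 0.74 ± 0.10 (adjusted p = 6.32e-06) and 0.96 ± 0.10 (adjusted p = 5.79e-08). Of 6 markers of pericytes and smooth muscle 2 fell in both. Of 5 thalamus, 4 ependyma and 6 oligodendrocyte markers, none was called in mice labelled Abca7 and 1 of each list rose in control mice. Of 7 neuron markers 1 fell in both, and of 3 markers of oligodendrocyte precursors none was called. In each case the part of these cells in the members' changes was not tested. The model with Ttr described above is no such test. Choroid plexus markers themselves rose with LPS in control mice, so it cannot separate that tissue from LPS there.

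The signs of the members' changes were also compared within single ages, the labelled feature of the mice besides group. At 55 days, 18 of the 18 members called in mice labelled Abca7 (2 LPS and 3 unstimulated libraries) and 19 of the 19 called in control mice (2 and 2 libraries) had the same sign as over all libraries. At 56 days the same held for 18 of 18 (2 and 1 libraries) and 19 of 19 (3 and 3 libraries). The members were called from these same libraries, so agreement of sign was nearly fixed in advance and cannot stand as support. The counts also hold members measured only through LPS libraries. No test was made within an age, and sizes varied: Tnfsf13 in mice labelled Abca7 was at -0.18 at 55 days and -0.45 at 56 days on the log2 scale.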

How the data were processed

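RNA-seq counts of 24 mouse cortex libraries, 6 in each of 4 groups, were analysed. Per the series' design text, the authors sequenced on an Illumina HiSeq 4000, mapped reads to mm10 and made the deposited raw gene counts with MAP-RSeq 2.1.1; STAR 2.5.2b is named in the submitters' processing notes. The sources used here do not give the annotation release or the strand setting. Counts were used as deposited. No column lacked a sample, no 2 libraries were identical, and the libraries of a group differed beyond sampling noise (chi-square per degree of freedom at least 7.8).

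Genes were kept by filterByExpr (21891 of 43346), scaled by TMM and fitted over all 24 libraries with edgeR 4.0.16 (R 4.3.3, limma 3.58.1; glmQLFit, glmQLFTest, two-sided), with Benjamini-Hochberg adjustment over all tested genes and a threshold of 0.05. An SE is the absolute log2 fold change over the square root of F, which is no guide to precision for genes near 0 in a group. CPM used TMM; CPM per kb divided it by the deposited gene length. All p-values measure the spread between the animals sampled. The fit was tested on simulated data. Count ratios have exact binomial intervals. Alternatives were DESeq2 1.42.0 and its size factors, other filters, each library left out, age as a factor and the level of Ttr as a covariate.

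Members given by library were those called with at least a 2-fold change in either LPS comparison, plus Tnf, Tnfrsf1a and Tnfrsf1b; other called members are named with their fold change, and list genes where they passed and changed at least 2-fold in control mice. The members, lists and tests were chosen with earlier results of these data known. Ltb was chosen for its sequence after its values were seen. One cortical marker is not reported here. Sequences come from RefSeq (GRCm38.p6); strands, gene types and shared 50-base stretches come from GENCODE annotation of the same genome. Motifs were searched on both strands. Precision rests on 6 libraries a group, and on counting error for members with few counts.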

Additional observations from a re-analysis of the deposited data

Results flagged for a closer look

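In 13 of the 144 combinations of a measured member and a group, 1 library stood apart from the other 5 by Dixon's criterion. Chance meets it in about 5% of groups of normally distributed values, which levels from few counts are not. Of the 13, 4 were the same library, LPS library 4 of the mice labelled Abca7. It had the lowest level of Tnfsf8 (0.0785 CPM, others 0.557 to 1.06), Tnfrsf9 (0.216 CPM, others 0.669 to 1.08), Tnfrsf14 (0.471 CPM, others 0.947 to 1.19) and Tnfrsf13c (0 CPM, others 0.180 to 0.313). In unstimulated mice labelled Abca7, library 1 had the highest level of Tnfsf10 (5.26 CPM, others 1.34 to 2.03) and library 6 had 0 CPM of Tnfsf11 (others 0.0359 to 0.0718).

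In LPS control mice, Tnfrsf13b was lowest in library 2 (0.285 CPM, others 0.555 to 0.719), Ltbr was lowest in library 1 (5.07 CPM, others 7.06 to 8.05) and Tnfrsf22 was highest in library 4 (16.04 CPM, others 14.9 to 15.3). In unstimulated control mice, Tnfsf13os was lowest in library 3 (0.817 CPM, others 1.04 to 1.12), Tnfsf10 was lowest in library 6 (1.31 CPM, others 2.04 to 2.33) and Tnfrsf9 was lowest in library 1 (0.156 CPM, others 0.335 to 0.498). Tnf had 0.0161 CPM in library 4 of that group, which was 1 count, and 0 in the others.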

How the results depend on the processing

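The counts of called members kept within 1.5 times their value, and the genotype and interaction counts stayed at 0, under every alternative but one: with the level of Ttr as a covariate, 9 members were called in control mice instead of 19, and the cause was not tested. The calls lost there were those of Ltbr, Tnfrsf11a, Tnfrsf12a, Tnfrsf14, Tnfrsf23, Tnfrsf9, Tnfsf12, Tnfsf13, Tnfsf15 (adjusted p = 0.125) and Tnfsf9 (adjusted p = 0.0576). Of these 10, the log2 fold change shrank by over 1.5 times for Ltbr (0.25), Tnfrsf12a (0.17) and Tnfrsf23 (-0.13), grew to 1.34 for Tnfrsf9, and stayed within 1.5 times for the other 6. Leaving out each library gave 15 to 19 called members in mice labelled Abca7 and 15 to 20 in control mice, and 23 to 26 and 25 to 34 called genes of the pathway lists. No direction changed under any alternative among the members given by library. Age as a factor ended the calls of Tnfrsf14, Tnfsf11 and Tnfsf13 in mice labelled Abca7 and of Tnfrsf12a in control mice; the log2 fold changes were 0.75, 1.76 and 0.43 for Tnfrsf14, Tnfsf11 and Tnfrsf12a, close to those without age, and -0.31 for Tnfsf13, over 1.5 times smaller. All mice aged 54 days had LPS and all aged 57 or 58 days were unstimulated, so those ages hold no LPS comparison. The part of this in the calls lost with age was not tested. No paired analysis was possible because the labels give no replicate numbers that groups share. Depth limits what can be said of Tnfsf11, Tnfsf15, Fasl and the unmeasured members, which had few counts.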

Other observations

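Several members stand close together in the genome, and some of these neighbours were called in the same direction while others were not. On chromosome 4, Tnfsf15 and Tnfsf8 rose in mice of both labels. On chromosome 6, Ltbr and Tnfrsf1a rose in both, and Cd27, 69.6 kb from Ltbr, was called in neither. On chromosome 4, Tnfrsf1b rose in both, and Tnfrsf8, 20.3 kb away, was called in neither. On chromosome 17, Tnfsf9 rose in both, and Cd70, 38.2 kb away, was not measured, with 28 counts over LPS mice labelled Abca7 and 15 over unstimulated mice labelled Abca7, and 26 over LPS control mice and 6 over unstimulated control mice. These positions were looked at after the values were seen, and no test of neighbouring genes was made.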
